A study of Mus musculus with 24 samples.

Results

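Ddit4, Sesn1, Sesn2, Sesn3, Deptor, Tsc1 and Tsc2 encode proteins that hold back mTORC1, the kinase complex through which growth factors and nutrients drive protein synthesis and growth. Their transcripts were followed in mouse liver after an injection of MitoCDNB. The 7 genes were chosen by symbol from the 24421 genes of the count table, as a set drawn up with the rise of Ddit4 at 1 h in these same libraries already known. All 7 had a row in the table, and all 7 passed a filter on low counts that kept 13833 genes. Because the choice was made on the 1 h comparison, the members' values in it, and in anything that uses the MitoCDNB libraries of 1 h as a contrast, are given as a description with no p-value. Tests of the members are read only for the treatment comparison at 4 h and for the comparison of times in vehicle livers. The latter uses the vehicle libraries of 1 h, which also entered the choice. Its p-values for the members are therefore not free of that choice. For the other contrasts, calls are counted beside the share of all genes called, and nothing is read from them.

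RNA came from the medial liver lobe of C57BL/6 mice, in 24 polyA libraries and 4 groups of 6. A mouse received either vehicle, which was 0.1% ethanol, or MitoCDNB at 5 mg/kg, and liver was taken 1 h or 4 h later. All groups share strain, tissue and an injection, no uninjected group was analysed here, and the labels state neither age nor sex. MitoCDNB is a form of the electrophile CDNB that is directed to mitochondria, where it is known to consume glutathione and to inhibit thioredoxin reductase. Library numbers in the labels run from 1 to 12 for the 4 h groups and from 13 to 24 for the 1 h groups. Time after injection and library order therefore cannot be told apart in the comparisons between times. Totals ran from 25132737 to 37231025 counts per library. Summed levels of 10 hepatocyte markers lay between 46879 and 72173 in counts-per-million (CPM) units in the 24 libraries, and none of the 10 was at 0 in every library of a group. Whole liver was sequenced, so a change in the number of cells of a type and a change in RNA per cell cannot be told apart. A principal component of all genes that held 10.2% of the variance set 2 libraries of 4 h apart. These were vehicle replicate 1, at -28.7, and MitoCDNB replicate 2, at -37.2, with the consecutive library numbers 2 and 3. The other 10 libraries of 4 h lay between -13.7 and 23.5. Results that rest on these libraries are given with and without them.

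The brakes act at different steps. Ddit4, also called REDD1, is made under hypoxia, DNA damage, glucocorticoids and energy stress, and restrains mTORC1 by way of the TSC complex. Tsc1 and Tsc2 form that complex, in which Tsc2 switches off the small GTPase RHEB, the direct activator of mTORC1. Sestrins bind the GATOR2 complex and so curb signalling to mTORC1 at the lysosome, with Sesn2 known as a leucine sensor. Deptor binds the mTOR kinase itself and lowers its activity in both of its complexes.

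Ddit4 and Sesn2 were the members that stood highest together in single libraries of 4 h, so their start regions are shown. The sequences are from RefSeq on GRCm38.p6, the mm10 build named in the submitters' processing notes, read 5′ to 3′ along the gene from 250 bases before to 50 bases after its start. The Ddit4 window is chr10:59951721-59952020 and the Sesn2 window is chr4:132510407-132510706, both on the minus strand. Capitals mark the letters ACGTG in Ddit4, the core of a hypoxia response element, and a match to TGACNNNGC in Sesn2, the core of an antioxidant response element.
Ddit4: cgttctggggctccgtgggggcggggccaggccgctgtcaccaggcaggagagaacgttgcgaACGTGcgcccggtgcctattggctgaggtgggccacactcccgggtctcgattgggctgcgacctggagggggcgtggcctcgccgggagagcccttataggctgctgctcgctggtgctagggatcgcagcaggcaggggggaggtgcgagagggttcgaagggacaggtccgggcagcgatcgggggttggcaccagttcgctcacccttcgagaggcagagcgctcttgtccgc
Sesn2: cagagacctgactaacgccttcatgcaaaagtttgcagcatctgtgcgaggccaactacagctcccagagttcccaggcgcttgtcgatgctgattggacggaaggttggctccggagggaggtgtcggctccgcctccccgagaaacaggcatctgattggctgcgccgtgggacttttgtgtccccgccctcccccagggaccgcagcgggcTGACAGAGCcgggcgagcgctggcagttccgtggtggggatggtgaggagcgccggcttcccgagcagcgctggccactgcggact

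The Ddit4 match lay at -187 from the start site, and ACGTG occurred on either strand in 19.6% of the 32851 promoter windows of the RefSeq table. The Sesn2 match lay at -36, and TGACNNNGC occurred in 12.4% of the windows. Another single match was GTAAACA, the letters of a forkhead (FOXO) site, in reverse at 22 bases after a start of Sesn1 in the window chr10:41810324-41810623 (plus strand), against 3.65% of all windows. Windows were found for 6 of the 7 members, with 2 for Sesn1 and none for Deptor. CCAAT was present in 5 of these 7 windows, belonging to Ddit4 and the 3 sestrins, against 37.4% of all windows, and GGGCGG in the same number against 35.7%. Both motifs were absent from the windows of Tsc1 and Tsc2. None of the 7 windows held TGACGTCA, TGANTCA, TGATGNAA, the glucocorticoid response element, CACGTG or TATAAA on either strand, letters that 1.79%, 7.81%, 3.97%, 0.475%, 7.15% and 13.6% of all windows contain. ACGTG is part of CACGTG, so those matches can overlap. A match is a run of letters and not a measured binding site.

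**Figure D1:**
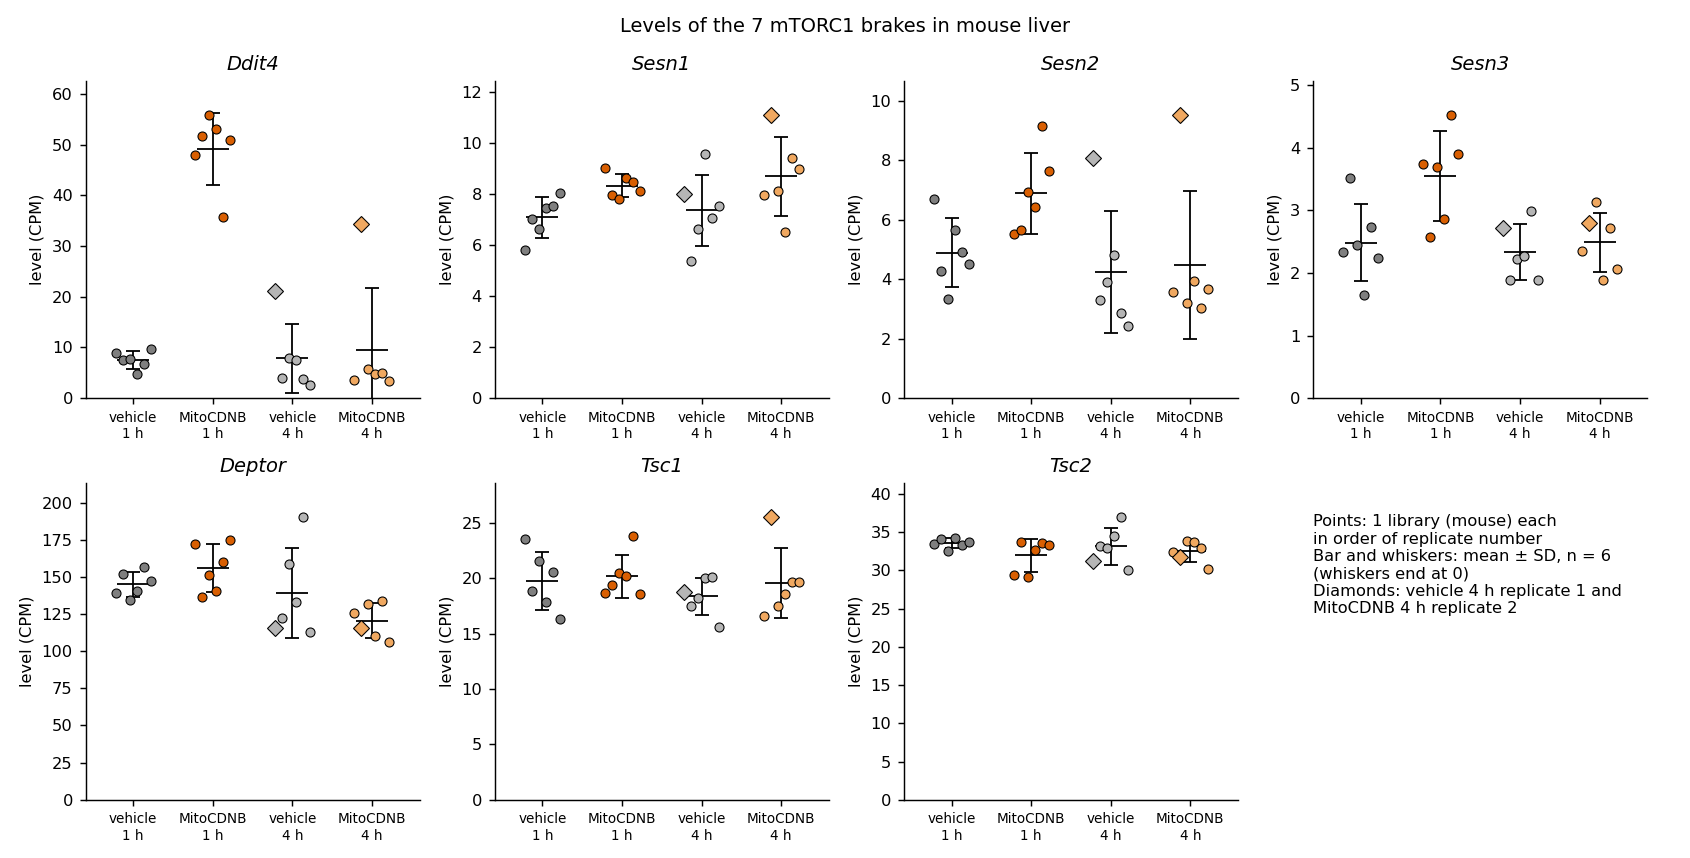
Levels of the 7 mTORC1 brakes in CPM (linear axes from 0) in vehicle and MitoCDNB libraries of 1 h and 4 h. Each point is a library, and the bar and whiskers are the mean and SD of 6 libraries. Ddit4 lies between 35.7 and 55.8 CPM in MitoCDNB libraries of 1 h and at 9.69 or below in vehicle libraries of 1 h. The diamonds are vehicle replicate 1 and MitoCDNB replicate 2 of 4 h, the highest libraries of their groups for Ddit4 and Sesn2.

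Ddit4 was high in every liver 1 h after MitoCDNB. In vehicle libraries of 1 h it ran from 4.75 CPM at the lowest through a median of 7.58 to 9.69 CPM at the highest. In MitoCDNB libraries of 1 h it ran from 35.7 CPM through a median of 51.3 to 55.8 CPM. The groups did not overlap, and the lowest treated library, replicate 5, was above every vehicle library of 1 h. The means were 7.55 ± 1.72 CPM for vehicle and 49.2 ± 7.10 CPM for MitoCDNB (SD, n = 6 each), a log2 fold change of 2.70 (SE 0.55). That SE comes from a fit over all 24 libraries, and with the 1 h groups alone it was 0.15 at the same fold change. Ddit4 ranked 10 of the 13833 genes by its rise, which is what the set was chosen on. At 1 h 1 of the 7 members was called, against 6.57% of all tested genes, and 1 of 7 did not overlap between the groups, against 4.74%. Nothing is read from these shares, since the rule used this contrast.

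Labels number the replicates, and 3 brain transcripts differed in detection between replicates 1 to 3 and 4 to 6 of 1 h. Snap25, Nefl and Mobp, 3 of 12 neuron and glia markers, were at 0 in replicates 1 to 3 of both 1 h groups and were detected among replicates 4 to 6 of both. Snap25 and Mobp were also at 0 throughout both groups of 4 h. The sum of the 12 markers overlapped between the sets, at 78.4 to 100 and 74.2 to 104 CPM in vehicle libraries. In MitoCDNB libraries it was 70.2 to 95.9 and 81.0 to 94.9 CPM. The Ddit4 difference was as large within each set, with log2 fold changes of 2.69 and 2.71 from the 1 h groups alone. Within replicates 1 to 3 the means were 8.01 ± 0.77 CPM for vehicle and 51.8 ± 3.96 CPM for MitoCDNB (SD, n = 3 each). Within replicates 4 to 6 they were 7.08 ± 2.48 CPM and 46.5 ± 9.46 CPM (SD, n = 3 each). Medians of the summed levels were higher after the treatment at 1 h for every cell type list except neuron and glia, with 94.2 CPM in vehicle and 87.5 CPM in MitoCDNB libraries. For hepatocytes they were 59396 and 64122 CPM. The 3 lists with the largest relative rises follow. The summed level of 4 neutrophil markers was 4.34 to 8.52 CPM in vehicle libraries and 9.92 to 14.98 CPM in MitoCDNB libraries, with none of the 4 called. The sum of 5 cholangiocyte markers was 20.1 to 28.0 CPM in vehicle and 21.5 to 54.1 CPM in MitoCDNB libraries, with 1 of 5 called higher. The sum of 5 erythroid markers was 469 to 1201 CPM in vehicle and 619 to 1153 CPM in MitoCDNB libraries, with medians of 579 and 1049 CPM and none of the 5 called. Its groups were apart within replicates 4 to 6, at 469 to 757 CPM and 1113 to 1153 CPM, and overlapped within replicates 1 to 3. No marker of these lists was at 0 throughout a group, and the part of these cells in the Ddit4 level was not tested.

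At 4 h Ddit4 was low in most livers of either group. In vehicle libraries of 4 h it ran from 2.54 CPM through a median of 5.73 to 21.2 CPM. In MitoCDNB libraries of 4 h it ran from 3.42 CPM through a median of 4.91 to 34.4 CPM. A single library made the upper end of each group, vehicle replicate 1 and MitoCDNB replicate 2, which are the 2 libraries set apart across all genes. The other 5 vehicle libraries had a mean of 5.13 ± 2.43 CPM and the other 5 MitoCDNB libraries 4.52 ± 0.95 CPM (SD). Over all 12 libraries the group means were 7.80 ± 6.90 CPM and 9.49 ± 12.2 CPM (SD, n = 6 each), with a log2 fold change of 0.28 (SE 0.54, edgeR quasi-likelihood test, adjusted p = 0.870). The sign turned with these libraries. The log2 fold change was 0.88 without vehicle replicate 1 (adjusted p = 0.416), -0.79 without MitoCDNB replicate 2 (adjusted p = 0.402) and -0.19 without both (adjusted p = 0.809). The 95% interval over all libraries, from -0.77 to 1.34 on the log2 scale, spans changes in both directions.

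Among the 4 groups mean Ddit4 was highest after 1 h of MitoCDNB, followed by 4 h of MitoCDNB, 4 h of vehicle and 1 h of vehicle. The last 3 groups overlapped, and by medians vehicle at 1 h stood above both groups of 4 h. MitoCDNB at 4 h was not tested against vehicle at 1 h. Without replicate 2 the MitoCDNB libraries of 4 h held 3.42 to 5.69 CPM, beside 4.75 to 9.69 CPM in vehicle libraries of 1 h. Vehicle libraries gave a log2 fold change of 0.05 between 1 h and 4 h (SE 0.54, edgeR, adjusted p = 0.978). This comparison uses the same vehicle libraries as the treatment comparisons. Without vehicle replicate 1 of 4 h it was -0.55 (adjusted p = 0.626). In treated livers Ddit4 was lower at 4 h than at 1 h by a log2 fold change of -2.37 (SE 0.54), and the highest library of 4 h, at 34.4 CPM, lay below the lowest of 1 h, at 35.7 CPM. Without MitoCDNB replicate 2 of 4 h that value was -3.44. The effect of MitoCDNB on Ddit4 at 4 h minus that at 1 h was -2.42 (SE 0.76), and it was -3.49 without MitoCDNB replicate 2 of 4 h.

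**Figure D2:**
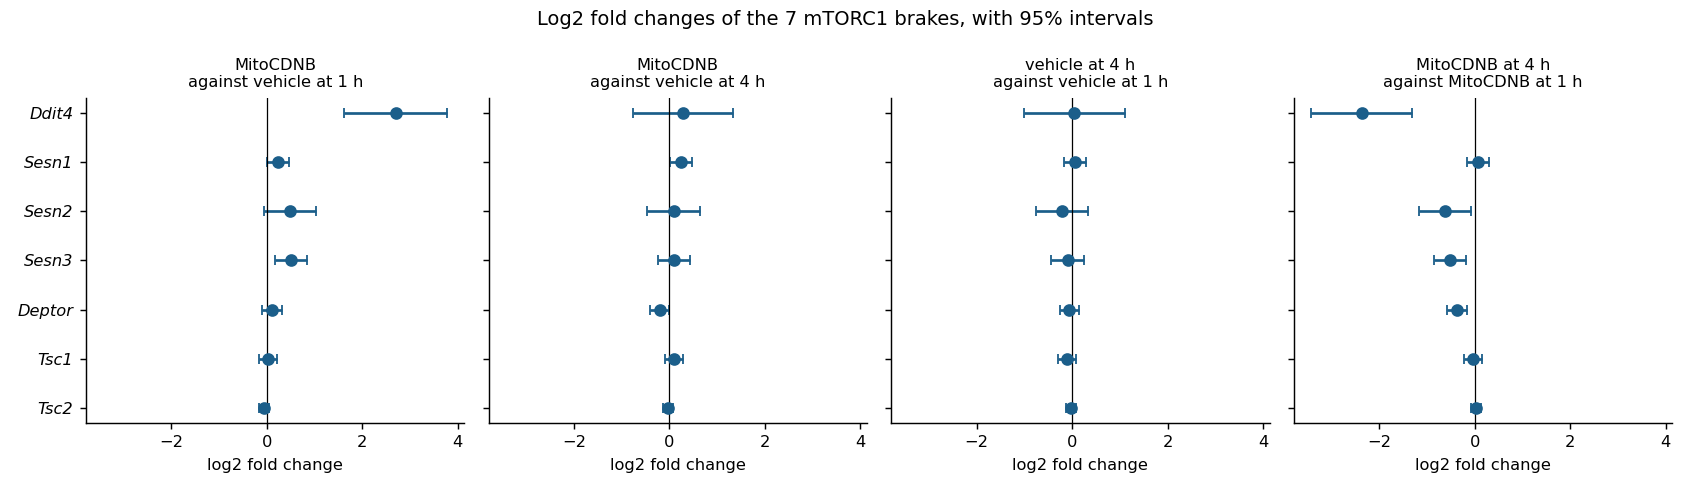
Log2 fold changes (horizontal axes) of the 7 brakes in 4 comparisons, with 95% intervals from the fit over all 24 libraries. Ddit4 stands at 2.70 for MitoCDNB against vehicle at 1 h and at -2.37 for MitoCDNB at 4 h against 1 h, while Tsc1 and Tsc2 lie near 0 in each panel.

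The sestrins are stress-induced inhibitors, and all 3 had higher means after MitoCDNB at 1 h. Each of the 6 treated libraries of 1 h lay above the vehicle mean for Sesn1, Sesn2 and Sesn3, but the groups overlapped for every sestrin. Sesn3 ran from 1.65 CPM through a median of 2.39 to 3.51 CPM in vehicle and from 2.58 CPM through 3.72 to 4.53 CPM in MitoCDNB libraries. Its log2 fold change at 1 h was 0.51 (SE 0.17). Sesn2 ran from 3.35 CPM through 4.70 to 6.71 CPM in vehicle and from 5.51 CPM through 6.69 to 9.16 CPM in MitoCDNB libraries, a log2 fold change of 0.49 (SE 0.28). Sesn1, known as a target of p53 and of FOXO factors, ran from 5.81 CPM through 7.25 to 8.06 CPM in vehicle and from 7.80 CPM through 8.28 to 9.01 CPM in MitoCDNB libraries. That is a log2 fold change of 0.23 (SE 0.12). Vehicle replicate 6, at 8.06 CPM, lay above the 2 lowest MitoCDNB libraries for Sesn1.

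At 4 h the sestrins did not pass the test. Sesn1 had means of 7.36 ± 1.40 CPM in vehicle and 8.70 ± 1.55 CPM in MitoCDNB libraries (SD, n = 6 each), a log2 fold change of 0.24 (SE 0.12, edgeR, adjusted p = 0.362), with 5 of 6 treated libraries above the vehicle mean. Without MitoCDNB replicate 2, the highest Sesn1 library, it was 0.16 (adjusted p = 0.619), and without both libraries that stand apart 0.18 (adjusted p = 0.532). Sesn3 had 2.33 ± 0.45 CPM and 2.49 ± 0.47 CPM, a log2 fold change of 0.09 (SE 0.17, adjusted p = 0.866). Sesn2 had 4.23 ± 2.06 CPM and 4.49 ± 2.49 CPM, a log2 fold change of 0.09 (SE 0.28, adjusted p = 0.935). The Sesn2 value turned to -0.28 without MitoCDNB replicate 2 (adjusted p = 0.676) and was 0.37 without vehicle replicate 1 (adjusted p = 0.518). The other 10 omissions gave -0.03 to 0.18. Counts per library were 71 to 297 for Sesn2 and 48 to 136 for Sesn3.

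Sesn2 and Ddit4 were highest in the same 2 livers at 4 h. Vehicle replicate 1 held 8.08 CPM of Sesn2, and the other 5 vehicle libraries held 2.44 to 4.81 CPM. MitoCDNB replicate 2 held 9.53 CPM, and the other 5 MitoCDNB libraries held 3.04 to 3.95 CPM. These 2 livers stood at 4.13 and 7.61 times the mean of the other 5 for Ddit4 and at 2.33 and 2.73 times for Sesn2. MitoCDNB replicate 2 was also the highest of its group for Sesn1, at 11.1 CPM, and for Tsc1, at 25.5 CPM. It was thus the highest of its group for 4 of the 7 members, and vehicle replicate 1 for 2 of 7. Over all tested genes the shares for which these libraries were highest were 22.3% and 21.9%. Hepatocyte markers summed to 68950 CPM in vehicle replicate 1 and 69672 CPM in MitoCDNB replicate 2, neutrophil markers to 4.49 and 3.31 CPM and Kupffer cell markers to 158 and 170 CPM, each within the range of the other 10 libraries of 4 h. Vehicle replicate 1 had the highest hepatocyte sum of its own group. Of 7 endothelial markers 1 was called higher and 3 lower after MitoCDNB at 4 h, and of 10 hepatocyte markers 1 was called higher. The part of these in the member levels was not tested.

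**Figure D3:**
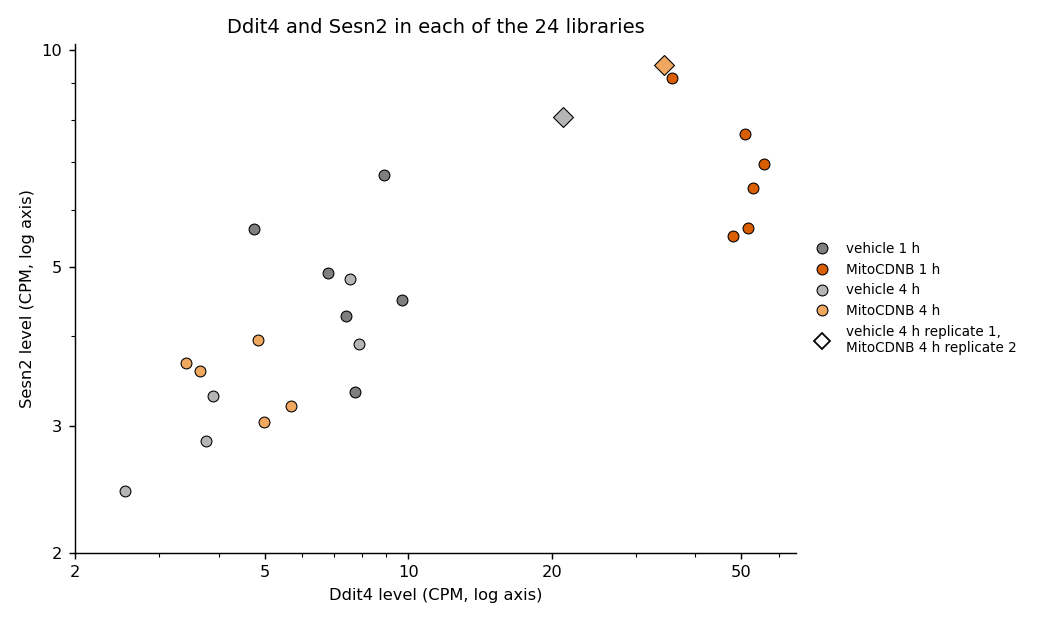
Ddit4 level (horizontal) against Sesn2 level (vertical) in each of the 24 libraries, both in CPM on log axes. The diamonds show 2 libraries of 4 h, with 21.2 CPM of Ddit4 and 8.08 CPM of Sesn2 for vehicle replicate 1, and 34.4 and 9.53 CPM for MitoCDNB replicate 2, apart from the other 10 libraries of that time.

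Between the times, Sesn2 and Sesn3 had lower means at 4 h than at 1 h in treated livers. In MitoCDNB libraries the log2 fold change from 1 h to 4 h was -0.51 for Sesn3 (SE 0.17), -0.62 for Sesn2 (SE 0.28) and 0.06 for Sesn1 (SE 0.12). Without MitoCDNB replicate 2 of 4 h the Sesn1 value turned to -0.02, and those of Sesn2 and Sesn3 were -0.98 and -0.55. In vehicle libraries the same times gave 0.06 for Sesn1 (SE 0.12, edgeR, adjusted p = 0.856), -0.21 for Sesn2 (SE 0.28, adjusted p = 0.758) and -0.09 for Sesn3 (SE 0.17, adjusted p = 0.835). Without vehicle replicate 1 of 4 h the Sesn2 value was -0.49 (adjusted p = 0.306).

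Deptor was abundant, and its lowest levels were in treated livers at 4 h. It ran from 134 CPM through a median of 144 to 156 CPM in vehicle and from 137 CPM through 156 to 175 CPM in MitoCDNB libraries of 1 h, a log2 fold change of 0.11 (SE 0.10). At 4 h it ran from 113 CPM through 128 to 190 CPM in vehicle and from 106 CPM through 121 to 134 CPM in MitoCDNB libraries. All 6 treated libraries of 4 h lay below the vehicle mean, but the groups overlapped and the log2 fold change of -0.21 did not pass the test (SE 0.10, edgeR, unadjusted p = 0.0571, adjusted p = 0.370). The vehicle mean was 139 CPM, with replicate 5 at 190 CPM. Treated replicates 3 and 5, at 132 and 134 CPM, lay above the vehicle median. Over the 12 single omissions the log2 fold change ran from -0.26 to -0.09 (edgeR, adjusted p from 0.197 to 0.726). From 1 h to 4 h, Deptor had a log2 fold change of -0.37 in treated livers (SE 0.10), with no overlap, since the highest library of 4 h held 134 CPM and the lowest of 1 h 137 CPM. The vehicle libraries gave -0.06 (SE 0.10, edgeR, adjusted p = 0.819), and their groups overlapped. The annotation places Gm9920 on the opposite strand over the start of Deptor, with 303 exon bases in common. As the handling of strand in the counting is not given in the sources used here, reads of the 2 genes may be mixed. Group means of Gm9920 were 5.81 to 6.15 CPM.

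Tsc1 and Tsc2, the subunits of the complex on which Ddit4 acts, were the members whose level moved least between groups by log2 fold change at 1 h. Tsc2 means ran from 32.0 to 33.6 CPM over the 4 groups and its 24 libraries from 29.2 to 37.04 CPM, a ratio of 1.27 between highest and lowest, against 21.97 for Ddit4. The log2 fold change of Tsc2 was -0.07 at 1 h (95% interval -0.17 to 0.04) and -0.03 at 4 h (95% interval -0.13 to 0.08, edgeR, adjusted p = 0.870). Tsc1 means ran from 18.4 to 20.2 CPM. Its log2 fold change was 0.03 at 1 h (95% interval -0.16 to 0.22) and 0.09 at 4 h (95% interval -0.10 to 0.28, adjusted p = 0.736), and without MitoCDNB replicate 2 the latter was 0.0019 (adjusted p = 0.997). Between vehicle libraries of 1 h and 4 h the values were -0.10 for Tsc1 (SE 0.10, adjusted p = 0.615) and -0.02 for Tsc2 (SE 0.05, adjusted p = 0.907). Tsc2 shares 693 exon bases with Pkd1 on the opposite strand, where the 2 genes meet at their ends, so its counts carry the same doubt about strand. Pkd1 ran at group means of 20.6 to 23.7 CPM.

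Counted over the set, 0 of the 7 members passed the edgeR test at 4 h, against 0.824% of all tested genes, and 0 had an unadjusted p under 0.05. DESeq2 and limma-voom also called 0, although DESeq2 returned no p-value for Ddit4, here or in any of the other comparisons. No member separated the groups of 4 h, against 0.896% of genes. Between vehicle libraries of the 2 times, 0 of 7 were called by edgeR, DESeq2 or limma-voom, and 0 had an unadjusted p under 0.05. The shares of all genes there were 5.44% called and 2.5% not overlapping, the latter with 0 of 7 members. For the difference between the effects at 4 h and 1 h, 0 of 7 were called by edgeR and 2 had an unadjusted p under 0.05, against 4.07% of all genes called. DESeq2 called 0 and limma-voom 1 there, and edgeR called 1, Ddit4, without MitoCDNB replicate 2 of 4 h. Between the times in treated livers 3 of 7 were called, Ddit4, Sesn3 and Deptor, against 28.5% of all genes, and all 3 were lower, against 13.4%. Groups of 2 members, Ddit4 and Deptor, did not overlap, against 13.1%. Sesn3 lost its call there without MitoCDNB replicate 5 or 6 of 1 h or replicate 4 or 6 of 4 h, and Sesn2 gained one without MitoCDNB replicate 2 of 4 h. Beside these, 4 of 4 neutrophil markers were called lower at 4 h than at 1 h in treated livers, and their sum was 9.92 to 14.98 CPM at 1 h and 1.79 to 3.46 CPM at 4 h. Of 7 endothelial markers 3 were called lower and 1 higher, and of 7 tested neuron and glia markers 2 were called lower. Of 10 hepatocyte markers 2 were called lower and 1 higher, and of 5 cholangiocyte markers 1 lower and 1 higher. Of 6 Kupffer cell markers 1 was called lower, and of 6 stellate cell markers 1. The part of these cells in the member levels was not tested. The difference between effects and the comparison of treated times rest on the MitoCDNB libraries of 1 h, so nothing is read from their shares. The median log2 fold change of the members at 4 h was 0.09, beside -0.0044 for all tested genes, and it was 0.14 without vehicle replicate 1, -0.02 without MitoCDNB replicate 2 and 0.0040 without both. At 1 h it was 0.23, beside 0.0025, from which nothing is read.

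Levels of different genes were compared only per kilobase of exon, using the union of annotated exons. Over the 24 libraries Deptor had 15.8 CPM per kb, Ddit4 10.5, Tsc2 3.41, Sesn1 1.98, Tsc1 1.65, Sesn2 1.48 and Sesn3 0.178 CPM per kb. In vehicle libraries of 1 h Deptor, at 15.1 to 17.6 CPM per kb, was far above Ddit4, at 2.71 to 5.52 CPM per kb. In MitoCDNB libraries of 1 h Ddit4, at 20.3 to 31.8 CPM per kb, was above Deptor, at 15.4 to 19.7 CPM per kb, so the most abundant transcript of the set changed. The short distance between these ranges depends on the exon lengths, 1755 bases for Ddit4 and 8874 for Deptor, which count all annotated exons whether or not liver uses them. Ddit4 spans 2166 bases at chr10:59949669-59951834, and Deptor 146955 bases at chr15:55112317-55259271, in the GENCODE M21 annotation of GRCm38. On the same build Sesn1 lies at chr10:41809935-41908424, Sesn2 at chr4:132492032-132510501, Sesn3 at chr9:14275067-14333101, Tsc1 at chr2:28641228-28691167 and Tsc2 at chr17:24595816-24632630.

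The genes whose levels followed Ddit4 most closely were Itprip, Inhbb, Sgk1, Trp53inp1 and Rasd1. Likeness was the mean absolute difference in log2 CPM over the 24 libraries after each gene was centred. Candidates were 11303 other tested genes whose mean level reached 1 CPM. Symbols of predicted genes were left out, so such a gene could lie nearer. The values were 0.53, 0.58, 0.59, 0.59 and 0.59, beside a median of 1.30 over the candidates. Their rise at 1 h and their high libraries of 4 h follow from the way they were picked, on all 24 libraries. Sgk1, a kinase known to be induced by glucocorticoids, had means of 15.05 ± 4.13 CPM in vehicle and 48.7 ± 5.10 CPM in MitoCDNB libraries of 1 h (SD, n = 6 each). Trp53inp1, a stress protein known as a p53 target, had 75.2 ± 29.5 CPM and 387 ± 49.0 CPM. Inhbb, a subunit of activin and inhibin, had 3.35 ± 1.35 CPM and 9.64 ± 1.45 CPM. Vehicle replicate 1 and MitoCDNB replicate 2 of 4 h were the highest of their groups for each of these 5 genes. For Inhbb they held 7.28 and 11.3 CPM, beside group medians of 2.67 and 1.66 CPM. For Trp53inp1, vehicle replicate 1, at 60.5 CPM, stood level with vehicle replicate 3, at 60.4 CPM. No p-value belongs to this choice, which was made on the same libraries.

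**Figure D4:**
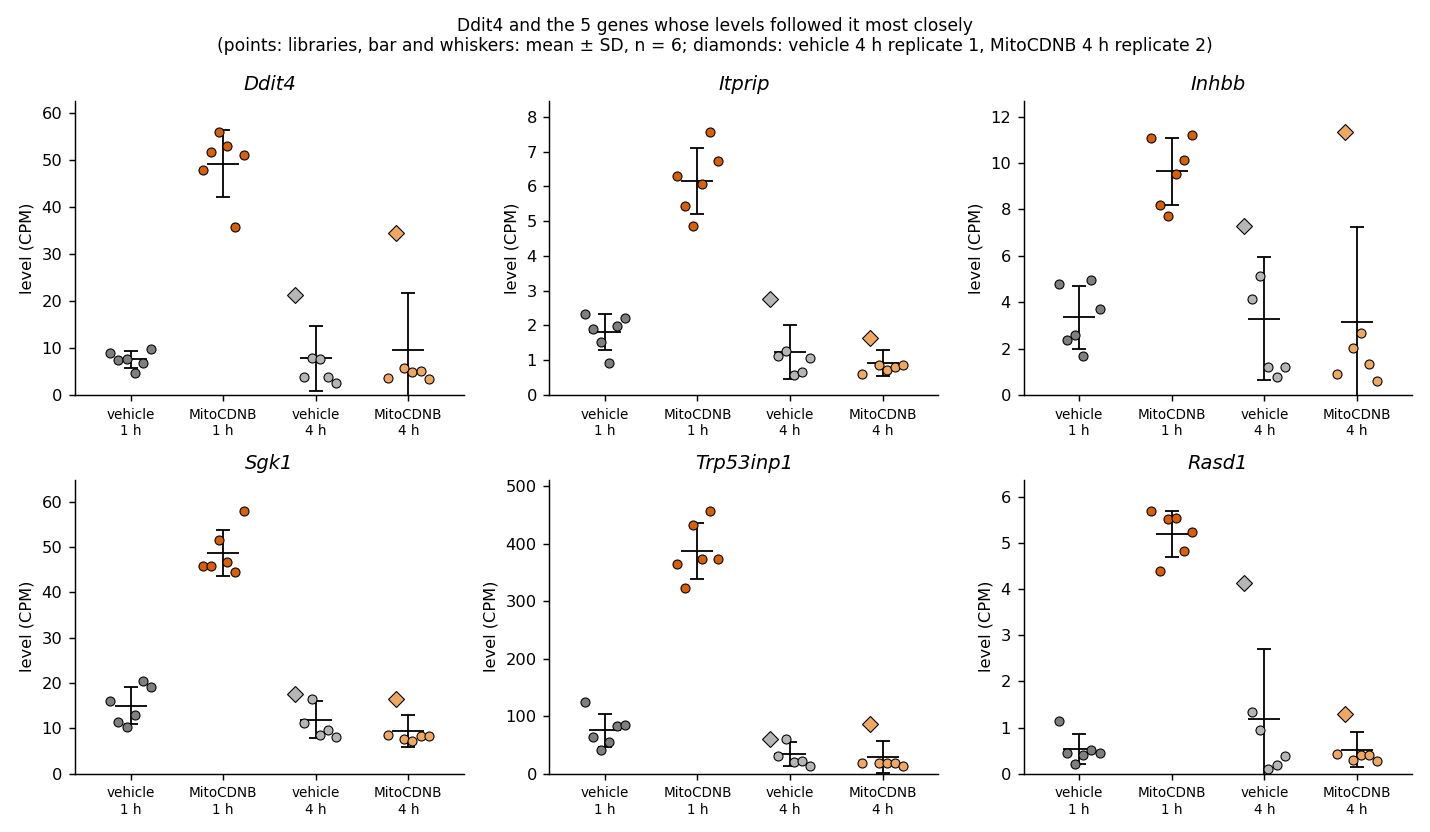
Levels in CPM (linear axes from 0) of Ddit4 and the 5 genes nearest to it in pattern over the 24 libraries, with predicted genes left out. Points are libraries and whiskers are the SD around the mean of 6. MitoCDNB libraries of 1 h lie above all others, except for Inhbb, where MitoCDNB replicate 2 of 4 h reaches 11.3 CPM. Diamonds mark that library and vehicle replicate 1 of 4 h, each the highest of its group.

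Around the brakes, most of the mTORC1 pathway did not pass the test. Of 82 genes in 9 lists, from mTOR subunits to transcription factors known to act on Ddit4 or the sestrins, 80 could be tested. At 1 h 3 were higher and 3 lower after MitoCDNB, which is 7.5% of the 80 beside 6.57% of all genes, and the median log2 fold change of the 80 was 0.05. DESeq2 called 7 of the 80 and limma-voom 10. The calls fell in 3 of the lists, with 1 of 8 mTOR subunits lower, 2 of 8 genes of AMPK and its activator LKB1 higher and 1 lower, and 1 of 11 transcription factors higher and 1 lower. All 9 lists were drawn up with earlier results of these data known, which limits what the p-values of their genes can show.

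Foxo3, a forkhead factor held out of the nucleus by AKT, rose from 17.9 ± 3.91 to 63.2 ± 13.2 CPM at 1 h (SD, n = 6 each), a log2 fold change of 1.81 (SE 0.16, edgeR, adjusted p = 4e-08). Every treated library lay above every vehicle library. Trp53, which encodes the p53 factor that acts on Sesn1 and Sesn2, fell from 13.1 ± 1.03 to 10.1 ± 1.08 CPM (log2 fold change -0.37, SE 0.09, adjusted p = 0.0120). Mlst8, a subunit shared by both mTOR complexes, fell from 6.39 ± 0.78 to 4.78 ± 0.53 CPM (log2 fold change -0.42, SE 0.10, adjusted p = 0.00759). Groups did not overlap for Trp53 or Mlst8. AMPK, the energy-sensing kinase that activates TSC, was mixed. Its regulatory subunit Prkag3 rose from 0.47 ± 0.33 to 2.11 ± 0.66 CPM (log2 fold change 2.17, SE 0.58, adjusted p = 0.0252), and Prkag1 from 23.9 ± 1.14 to 27.4 ± 1.19 CPM (log2 fold change 0.20, SE 0.06, adjusted p = 0.0435). The catalytic subunit Prkaa1 fell from 11.04 ± 1.10 to 8.99 ± 0.90 CPM (log2 fold change -0.30, SE 0.08, adjusted p = 0.0262). All 3 AMPK calls depended on single libraries. Prkag3 lost its call without vehicle replicate 1, 2 or 3 or MitoCDNB replicate 6 (adjusted p up to 0.0629), and Prkaa1 without vehicle replicate 1 or 2 or MitoCDNB replicate 1, 3, 4 or 6 (adjusted p up to 0.0754). Prkag1 kept its call only in the omissions of vehicle replicate 2 or MitoCDNB replicate 1, and had an adjusted p of up to 0.106 in the others. With library totals unscaled the 5 calls other than Foxo3 were lost, with adjusted p = 0.158 for Trp53, 0.111 for Mlst8, 0.0875 for Prkag3, 0.250 for Prkaa1 and 0.909 for Prkag1. Within replicates 1 to 3 and 4 to 6 of 1 h the log2 fold changes were -0.35 and -0.39 for Trp53 (adjusted p = 0.279 and 0.191), 3.27 and 1.68 for Prkag3, -0.39 and -0.19 for Prkaa1, and 0.21 and 0.19 for Prkag1, none of them called. Foxo3 was called in both sets, and Mlst8 lost its call within replicates 1 to 3 (log2 fold change -0.26, adjusted p = 0.437).

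At 4 h 1 of the 80 genes was called, Prkag2, which is 1.25% beside 0.824% of all genes, and DESeq2 and limma-voom also called 1 each. This AMPK subunit rose from 21.5 ± 2.47 to 29.8 ± 5.14 CPM (SD, n = 6 each), a log2 fold change of 0.47 (SE 0.11, edgeR, adjusted p = 0.0374). It lost its call without vehicle replicate 3, 4 or 5 or MitoCDNB replicate 2, 3 or 6 (adjusted p up to 0.0885). Without both libraries that stand apart the value was 0.34 (adjusted p = 0.0942). The call was also lost with library totals unscaled (adjusted p = 0.114) and with the 4 h groups fitted alone (adjusted p = 0.106).

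Between vehicle livers of 1 h and 4 h, 4 of the 80 genes differed, which is 5% beside 5.44% of all genes. Library order differs along with time in this comparison, so they cannot be told apart. Foxo3 fell from 17.9 ± 3.91 to 11.5 ± 2.14 CPM (log2 fold change -0.64, SE 0.16, edgeR, adjusted p = 0.0168). Foxo1, its close relative, fell from 33.3 ± 1.41 to 23.6 ± 6.59 CPM (log2 fold change -0.50, SE 0.13, adjusted p = 0.0284). Ddit3, which encodes the stress factor CHOP, fell from 8.45 ± 1.27 to 6.06 ± 0.61 CPM (log2 fold change -0.48, SE 0.13, adjusted p = 0.0319), without overlap. Tfeb, the lysosomal gene activator that mTORC1 keeps out of the nucleus, rose from 9.25 ± 1.31 to 11.98 ± 1.91 CPM (log2 fold change 0.37, SE 0.10, adjusted p = 0.0356). Tfeb lost its call in 8 of 12 omissions (adjusted p up to 0.0889) and kept it without vehicle replicate 1 or 2 of either time. Ddit3 lost its call without vehicle replicate 1, 5 or 6 of 1 h or replicate 2, 4, 5 or 6 of 4 h (adjusted p up to 0.0840). Foxo1 lost its call without vehicle replicate 5 or 6 of 1 h or replicate 4, 5 or 6 of 4 h (adjusted p up to 0.0655), and Foxo3 kept its call in all 12 omissions. None of the 4 was called when the vehicle libraries of 1 h were cut to replicates 1 to 3 or 4 to 6, with adjusted p = 0.0834 and 0.0606 for Foxo3. With library totals unscaled Tfeb (adjusted p = 0.495) and Ddit3 (adjusted p = 0.109) lost their calls, and with only these groups fitted Tfeb (adjusted p = 0.0960) and Foxo1 (adjusted p = 0.0808).

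**Figure D5:**
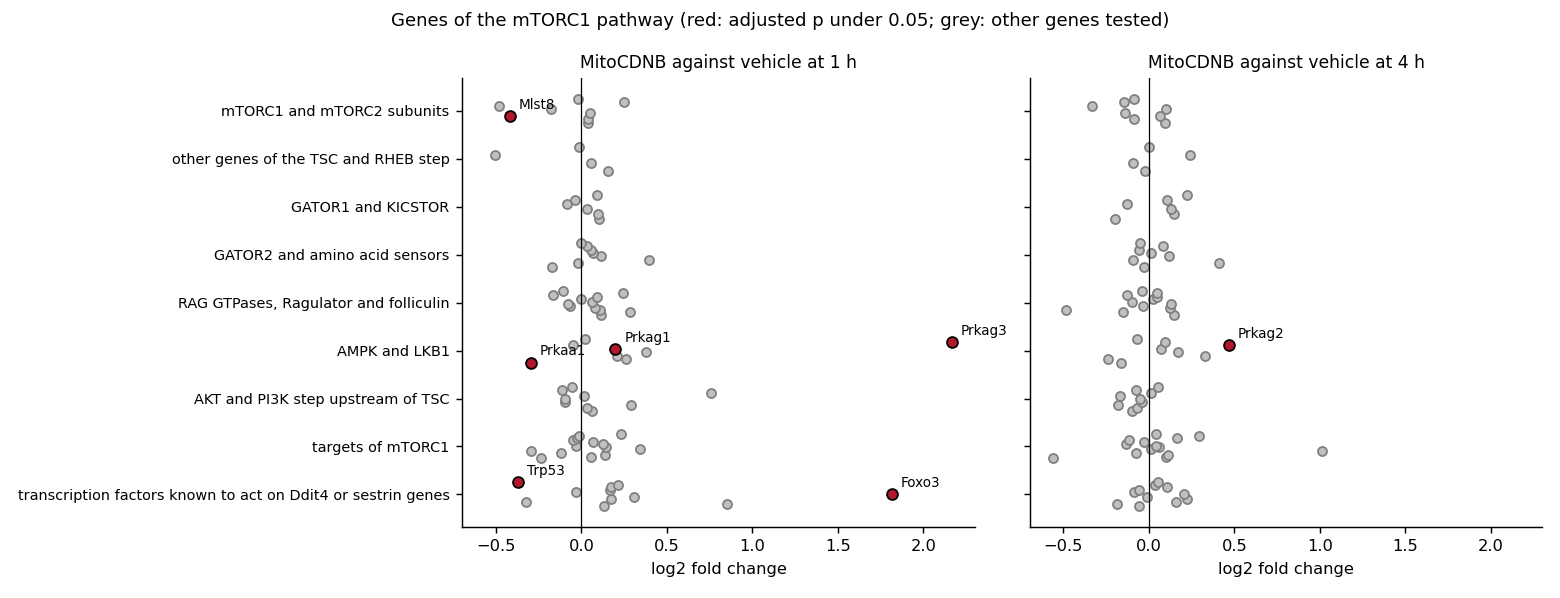
Log2 fold changes (horizontal axes) of the 80 tested genes of 9 mTORC1 pathway lists (rows), for MitoCDNB against vehicle at 1 h (left) and 4 h (right). Red points passed an adjusted p of 0.05, which were 6 genes at 1 h, among them Foxo3 at 1.81 and Trp53 at -0.37, and Prkag2 at 4 h at 0.47.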

How the data were processed

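Polyadenylated RNA from 24 livers was sequenced by the submitters. The authors deposited unnormalized counts by gene symbol, whole numbers whose totals differ between libraries. The submitters' processing notes name build mm10 and the tools CASAVA 1.8.4, Trim Galore, HISAT2 and DESeq2. The kit was NEBNext Ultra RNA, per the labels' protocol. How reads were counted, with which annotation and strand setting, is not given in the sources used here, which makes counts of overlapping genes uncertain. Groups came from the sample descriptions, and the 6 replicates of a group were taken as separate mice, per the labels' protocol.

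The members and lists were chosen with earlier results of these data known. Genes were kept with filterByExpr (minimum count 10, minimum total 15), counts were scaled by TMM, and the 4 groups were fitted to all 24 libraries with the robust quasi-likelihood test of edgeR 4.0.16 (R 4.3.3). Over the 13833 genes, Benjamini-Hochberg adjusted p-values under 0.05 were called. The SE came from the F statistic, and a 95% interval is 1.96 SE on either side, slightly narrower than the test itself allows. Levels are CPM on the scaled library sizes. The script was tested on simulated data. Alternatives included DESeq2 1.42.0, limma-voom 3.58.1, other scalings and filters, a block on the replicate number, and the omission of each library. All 60 pairs of libraries within a group differed by more than sampling noise, with a chi-square per degree of freedom of 16.2 or more. Text names all members and at most 4 called genes per pathway list and comparison. It also names the 5 genes most like Ddit4, predicted genes left out, and genes that overlap a member. Of the latter, 9930024M15Rik over Sesn1 and Gm12981 over Sesn2 share 0 exon bases with the member and have no row in the count table. Pathway symbols were matched to rows through RefSeq synonyms, which found 81 of 82. Of the 12 neuron and glia, 7 endothelial, 6 stellate, 5 lymphocyte, 5 erythroid and 6 Kupffer cell markers, 7, 7, 6, 1, 5 and 6 were tested, and 0, 1, 0, 0, 0 and 0 were called at 1 h (edgeR).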

Additional observations from a re-analysis of the deposited data

Results flagged for a closer look

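Over the 28 member and group combinations, 5 single libraries stood far from the other 5 of their group by Dixon's test, which divides the gap to the nearest library by the range of the group. Chance alone gives this in about 1 in 20 independent groups with normally spread values. The members share libraries, so the 28 combinations are not independent. The share over all tested genes was not computed, and nothing is read from the count of 5. Ddit4 stood out at 21.2 CPM in vehicle replicate 1 of 4 h and at 34.4 CPM in MitoCDNB replicate 2 of 4 h. Sesn2 stood out at 9.53 CPM and Tsc1 at 25.5 CPM in that same MitoCDNB library. Tsc1 also stood out at 23.8 CPM in MitoCDNB replicate 5 of 1 h. The first 2 libraries named are those set apart by the principal component of all genes, and their library numbers, 2 and 3, are consecutive. The cause was not tested.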

How the results depend on the processing

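The log2 fold change of Ddit4 at 1 h ran from 2.60 to 2.79 over all alternatives and omissions other than DESeq2, which returned no p-value for it. Signs were compared only where a value passed the test, and none of these turned.

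Called genes were 909 at 1 h, 114 at 4 h, 563 for the difference between effects, 753 between vehicle times and 3940 between MitoCDNB times. At an adjusted p under 0.01 they were 473, 19, 231, 255 and 2439. With library totals unscaled they were 407, 35, 221, 141 and 1981, with 1 member called between MitoCDNB times. That scaling moved the median of all genes by up to 0.15 (log2, for the difference between effects). It moved the share of higher calls from 55.3% to 88.6% at 4 h, from 54.8% to 21.3% between vehicle times and from 52.9% to 70.7% between MitoCDNB times. Within replicates 1 to 3 of 1 h the counts were 244 at 1 h (0 members), 150 for the difference, 177 between vehicle times and 2395 between MitoCDNB times (1 member). Within replicates 4 to 6 they were 256 at 1 h (0 members), 275 and 309. The 1 h groups alone, an alternative added after the data were seen, gave 369 and 495 in these sets. Member counts at 1 h, for the difference and between MitoCDNB times rest on the choice of the members, and nothing is read from them. DESeq2 called 348 and limma-voom 227 genes at 4 h, limma-voom called 930 for the difference, and fits of only the groups compared gave 18 at 4 h and 415 between vehicle times. Without the 2 libraries that stand apart 247 genes were called at 4 h. For the difference 1 member, Ddit4, was called without robust estimation, with limma-voom and without the 2 libraries.

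Single omissions gave 720 to 838 genes at 1 h with 1 to 2 members, Sesn3 being added without vehicle or MitoCDNB replicate 2. They gave 63 to 412 genes at 4 h, the highest without vehicle replicate 1, and 63 to 73 without vehicle replicate 2 or 5 or MitoCDNB replicate 3, 4 or 5. They gave 439 to 696 for the difference with 0 to 1 members, 480 to 749 between vehicle times (480 and 500 without vehicle replicate 6 or 5 of 1 h) and 3457 to 3901 between MitoCDNB times with 2 to 4 members.

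Replicate numbers gave no clear pairing of the libraries, since same-numbered libraries correlated at -0.07 to 0.21 at 1 h and -0.21 to 0.26 at 4 h. The same number was the best match for 5 of 12 libraries at 1 h and 4 of 12 at 4 h, so pairing by number was not excluded. With a replicate block 835, 84 and 504 genes were called at 1 h, at 4 h and for the difference, Ddit4 had log2 fold changes of 2.72 and 0.0021 at 1 h and 4 h, and Prkag1 (adjusted p = 0.108) and Prkag2 (adjusted p = 0.0623) lost their calls. The block was not fitted for the comparisons between times. Counts of 48 to 136 per library limit the precision for Sesn3.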
